A study of Mus musculus with 4 samples.

Results

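Genes of antigen presentation on major histocompatibility complex (MHC) class I and class II molecules were followed in the brains of mice with hypertension, stroke or both. The members were every gene whose name starts with H2- (35 genes), together with *B2m*, *Tap1*, *Tap2*, *Tapbp*, *Tapbpl*, *Cd74*, *Ciita*, *Nlrc5*, *Psmb8*, *Psmb9* and *Psmb10* (11 genes), which made 46 of the 33981 genes in the joined tables. By name, 24 were class I heavy chain genes, 5 class II chain genes (H2-A and H2-E) and 5 class II loading factors (H2-DM and H2-O). A further 2 were the class I light chain and transactivator (*B2m*, *Nlrc5*), 2 the class II invariant chain and transactivator (*Cd74*, *Ciita*), 7 supplied peptides, and *H2-Ke6* belonged to neither class. On the mouse genome build GRCm38, 40 of the 46 lay on chromosome 17, between 33915899 and 37483552. The deposited annotation calls 7 of them pseudogenes or polymorphic pseudogenes, among them *H2-K2*, *H2-T10* and *H2-Q5*.

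RNA sequencing was performed on 24 libraries from prefrontal brain tissue, 6 in each of 4 groups, with each library taken here as 1 mouse from its number in the tables. All mice were male C57BL/6J, 3 to 5 months old, and tissue was taken at the end of infusion. Normotensive mice (NT) were infused with saline and hypertensive mice (HT) for the same 28 days with angiotensin II (0.28 mg/kg daily), and either sham surgery or a photothrombotic stroke aimed at the prefrontal cortex was carried out on day 7. Group names join the 2 terms, as in HT + Stroke. The RNA came from a coronal brain section with the prefrontal cortex in it, a mixture of cell types. Fewer cells of a type and less RNA per cell can therefore not be told apart. How much infarct tissue each stroke section held is not stated. C57BL/6 mice carry the b haplotype of H2, in which the alpha chain gene of the I-E molecule (*H2-Ea-ps* here) is not functional.

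MHC class I molecules, a heavy chain paired with beta-2 microglobulin (*B2m*), display peptides from inside the cell to CD8+ T cells and are found on nearly all nucleated cells, at low levels in neurons. The peptides are cut by proteasomes, in inflamed tissue with the immunoproteasome subunits *Psmb8*, *Psmb9* and *Psmb10*, carried into the endoplasmic reticulum by *Tap1* and *Tap2* and loaded with tapasin (*Tapbp*). Class II molecules display peptides taken up from outside to CD4+ T cells, are made mainly by professional antigen-presenting cells, and in brain are known from border macrophages, infiltrating myeloid cells and activated microglia.

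The proximal promoters of class I and class II genes are known to share an arrangement in which a cyclic AMP response-like element lies upstream of a CCAAT box on the reverse strand, and where *Nlrc5* and *Ciita* act through a common protein complex. The stretches below are shown because their genes carry the results that follow. They run from 140 bases before to 9 bases after a RefSeq transcription start (RefSeq promoter windows, GRCm38.p6; 5′ to 3′ on the gene's own strand; the first listed start where there are several), and the capitals mark the letters TGANG and, 15 to 25 bases further on, ATTGG.
H2-K1 (class I heavy chain; chr17:34000338-34000487, minus strand): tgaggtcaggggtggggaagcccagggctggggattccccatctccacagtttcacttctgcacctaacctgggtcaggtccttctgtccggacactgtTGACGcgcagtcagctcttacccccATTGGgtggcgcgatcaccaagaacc
H2-D1 (class I heavy chain; chr17:35262954-35263103, plus strand): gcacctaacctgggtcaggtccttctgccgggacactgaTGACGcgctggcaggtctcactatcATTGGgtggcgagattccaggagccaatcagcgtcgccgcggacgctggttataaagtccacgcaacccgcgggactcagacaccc
B2m (class I light chain; chr2:122147547-122147696, plus strand): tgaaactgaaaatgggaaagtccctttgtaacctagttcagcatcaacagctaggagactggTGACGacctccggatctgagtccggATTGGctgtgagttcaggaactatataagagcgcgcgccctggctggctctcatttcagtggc
H2-Aa (class II alpha chain; chr17:34287814-34287963, minus strand): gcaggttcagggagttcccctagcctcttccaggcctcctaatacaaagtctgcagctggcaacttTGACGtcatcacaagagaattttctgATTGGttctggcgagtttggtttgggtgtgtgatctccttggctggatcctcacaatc
H2-Eb1 (class II beta chain; chr17:34305727-34305876, plus strand): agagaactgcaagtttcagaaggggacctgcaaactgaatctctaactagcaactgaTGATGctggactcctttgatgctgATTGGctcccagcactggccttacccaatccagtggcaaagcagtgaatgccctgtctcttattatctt
H2-DMb1 (class II loading factor; chr17:34153051-34153200, plus strand): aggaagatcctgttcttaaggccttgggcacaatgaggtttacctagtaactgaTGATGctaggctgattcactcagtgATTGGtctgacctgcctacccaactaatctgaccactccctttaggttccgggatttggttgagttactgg

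The gap between the capitals was 20 bases in *H2-K1*, *H2-D1*, *B2m* and *H2-DMb1*, 21 bases in *H2-Aa* and 19 bases in *H2-Eb1*. A promoter window (300 bases, 250 of them before the start) was given for 32 of the 46 members, and TGANG followed by ATTGG at 15 to 25 bases, searched on both strands, was found in 13 of the 32 (40.6%), in each case on the gene's own strand. Over all 32851 RefSeq promoter windows, counted singly and not by gene as the members were, the pair was found in 2.79%. On the gene's own strand it was found in 1.61%. It was present in 6 of 17 class I heavy chain genes (*H2-K1*, *H2-D1*, *H2-Q4*, *H2-Q6*, *H2-Q7* and *H2-M3*) and in *B2m*. In class II it was present in 3 of 3 chain genes with a window (*H2-Aa*, *H2-Eb1* and *H2-Eb2*). It was also present in 3 of 5 loading factor genes (*H2-DMb1*, *H2-DMb2* and *H2-Ob*). No window was given for *H2-Ab1*. None of the 5 peptide supply genes with a window (*Tap1*, *Tapbp*, *Psmb8*, *Psmb9* and *Psmb10*) held these letters, which says only that they are not in this window. The spacing was set after these promoters had been seen, and a match is a description of the letters, not of a bound site.

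Depth was 15922919 to 24865998 counts per mouse. The library labelled HT + Sham 6 stood apart from the other sham libraries, and those labelled HT + Stroke 1 and 6 from the other stroke libraries. They did so in the sum of 6 markers of border or infiltrating macrophages (*Mrc1*, *Cd163*, *Lyve1*, *Ms4a7*, *Ccr2* and *Lyz2*). The summed level of these markers, in CPM (counts relative to the library's total), was 14.9 to 25.3 in the other 11 sham mice against 180 in HT + Sham 6, and it was 128 to 732 in the other 10 stroke mice against 32.5 in HT + Stroke 1 and 40.8 in HT + Stroke 6. The markers in this sum did not move alike. In hypertensive mice without these libraries, stroke over sham gave 4.85 ± 0.44 (log2 fold change, SE) for *Lyz2* and 3.78 ± 0.40 for *Ms4a7*. *Ccr2* and *Mrc1* gave 1.61 ± 0.34 and 0.83 ± 0.20. *Cd163* and *Lyve1* gave -0.02 ± 0.24 and -1.18 ± 0.52. The groups are used as labelled, and the main results for hypertensive mice are given with and without these 3 libraries. Since they were picked by markers that moved with the MHC genes, values without them are no independent evidence. Levels of markers for olfactory bulb and striatum also ranged widely between mice (23.1 to 355 CPM and 134 to 1504 CPM). HT + Sham 6 held both the highest olfactory bulb sum and the lowest striatum sum. The part of these differences in the results was not tested. Counts of near-identical H2-K, H2-D, H2-Q and H2-T genes are uncertain to the extent that reads could be shared between them, and 17 of the 32 members described by name overlap a gene on the opposite strand, among them *Tap1* and *Psmb9*, which overlap each other.

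Most of the measured members were higher after stroke in normotensive mice. Of the 34 that passed the filter on low counts, 26 rose in NT + Stroke compared to NT + Sham at an adjusted *P* under 0.05 (edgeR quasi-likelihood test, adjusted over all genes tested), and none fell. Over all 16835 genes tested 14.4% rose and 11.5% fell. The median log2 fold change of the 34 members was 1.04, against -0.01 over all genes tested. In 23 of the 34 the lowest NT + Stroke mouse was above the highest NT + Sham mouse, which held for 7.78% of all genes tested. The other 12 members did not pass the filter. Among them *H2-M10.1* had 2 counts in all 24 mice together, *H2-Ea-ps* 8 and *H2-Eb2* 26.

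**Figure D1:**
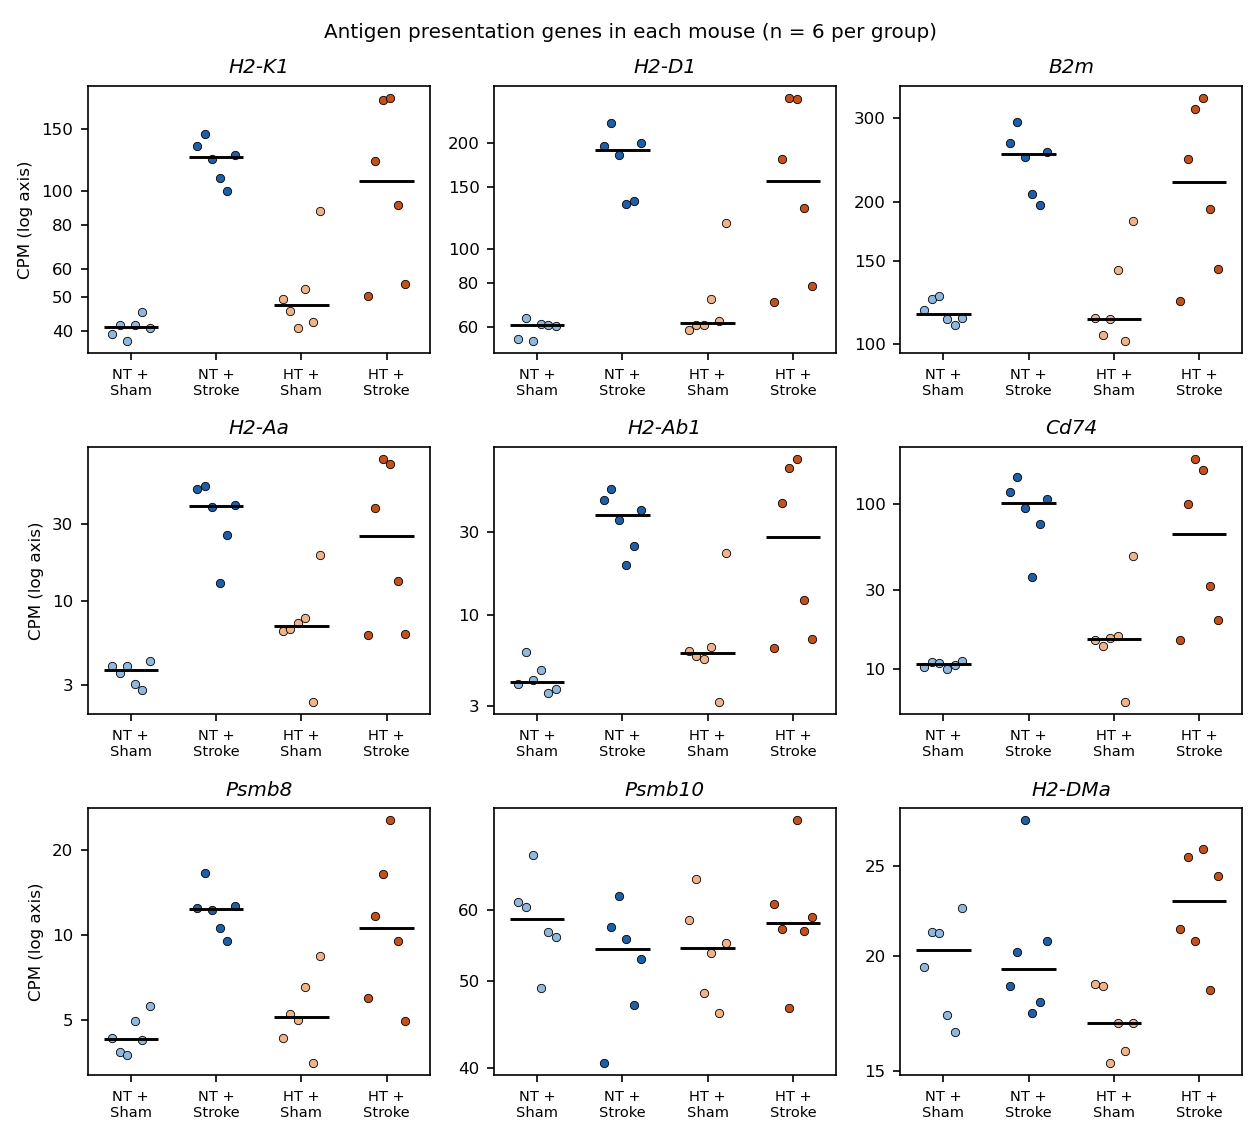
CPM of 9 members in each mouse on log axes, with points for the 6 mice of each group in the order of their numbers and a line at the group median. *H2-K1*, *H2-D1*, *B2m*, *H2-Aa*, *H2-Ab1*, *Cd74* and *Psmb8* show no overlap between NT + Sham and NT + Stroke, whereas HT + Stroke mice are spread over the range of the other groups. In *H2-D1*, *H2-Aa*, *Cd74* and *Psmb8* the highest HT + Stroke mouse lies above that range. *Psmb10* and *H2-DMa* overlap between NT + Sham and NT + Stroke.

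The classical class I heavy chains *H2-K1* and *H2-D1*, which present peptides to CD8+ T cells, rose by similar folds. *H2-K1* was at 37.4 to 45.2 CPM (median 41.1) in NT + Sham and at 100.2 to 145 CPM (median 125) in NT + Stroke. Its log2 fold change was 1.59 ± 0.08 (SE), a 3.02-fold rise (adjusted *P* = 9.52e-10). *H2-D1* was at 54.8 to 63.9 CPM (median 60.7) in NT + Sham and at 135 to 228 CPM (median 191) in NT + Stroke. The change was 1.61 ± 0.12 on the log2 scale, or 3.05-fold (adjusted *P* = 1.88e-07). In each case all 6 stroke mice were above all 6 sham mice.

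Non-classical class I genes moved unequally. *H2-Q7* and *H2-Q6*, which encode Qa-2 molecules, rose from medians of 1.24 and 1.52 CPM to 4.89 and 5.59 CPM, with log2 fold changes of 2.04 ± 0.22 and 1.77 ± 0.19. *H2-Q4* rose 2.89-fold and *H2-Q5*, at only 0.06 to 0.54 CPM in NT + Sham, rose 4.08-fold. *H2-T23*, the Qa-1 heavy chain recognised by receptors of natural killer cells, was at 24.1 to 30.9 CPM in NT + Sham and 32.8 to 49.3 CPM in NT + Stroke, a smaller rise of 1.52-fold (adjusted *P* = 0.000115). *H2-M3*, which presents formylated peptides of bacteria and mitochondria, rose 1.55-fold and *H2-T22*, a ligand of gamma delta T cell receptors, 1.23-fold. The pseudogene *H2-K2* rose from a median of 2.75 to 5.70 CPM (adjusted *P* = 1.37e-05). *H2-Q1* passed narrowly (log2 fold change 0.88 ± 0.32, adjusted *P* = 0.0482). The values for *H2-T10*, *H2-T24*, *H2-M5* and *H2-M6-ps* were 0.43 ± 0.20, 0.43 ± 0.31, -0.07 ± 0.20 and -0.31 ± 0.27 on the log2 scale, and none of the 4 passed the test. In all, 11 of the 15 heavy chain genes tested rose, with a median of 0.88.

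*B2m*, the light chain needed by every classical class I molecule, was at 110 to 126 CPM (median 116) in NT + Sham and at 197 to 295 CPM (median 252) in NT + Stroke, without overlap. It rose 2.09-fold (log2 fold change 1.06 ± 0.08, adjusted *P* = 1.48e-07). *Nlrc5*, the transactivator of class I genes, is expressed at a low level and was at 0.33 to 0.76 CPM in NT + Sham and 1.16 to 2.86 CPM in NT + Stroke, again without overlap. Its rise was 3.58-fold (adjusted *P* = 9.59e-05).

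The class II chains had a median log2 fold change of 3.05 over the 3 genes tested, and each of the 3 rose. *H2-Aa*, the alpha chain of I-A, was at 2.80 to 4.21 CPM (median 3.73) in NT + Sham and at 12.9 to 51.5 CPM (median 38.8) in NT + Stroke, a 10.1-fold rise (log2 fold change 3.34 ± 0.33, adjusted *P* = 2.59e-05). Its partner *H2-Ab1* was at 3.55 to 6.15 CPM (median 4.10) and 19.3 to 52.8 CPM (median 37.6) in these groups and rose 8.25-fold (adjusted *P* = 5.16e-06). *H2-Eb1*, the beta chain of I-E, was at 3.92 to 6.02 CPM (median 5.25) and 16.5 to 48.2 CPM (median 36.6) and rose 6.57-fold (adjusted *P* = 9.63e-06). The alpha chain gene of I-E had 8 counts in all mice together. *Cd74*, the invariant chain that holds the class II groove until peptide is loaded, was at 10.03 to 11.3 CPM (median 10.8) in NT + Sham and 36.0 to 145 CPM (median 100.4) in NT + Stroke, an 8.95-fold rise (adjusted *P* = 2.38e-05). Across these 4 genes the lowest stroke mouse was the same, NT + Stroke 4, and it remained above all sham mice. *Ciita*, the class II transactivator, was at 0.44 to 2.04 CPM and 1.12 to 2.42 CPM, with overlap, and its log2 fold change of 0.93 ± 0.33 was close to the threshold (adjusted *P* = 0.0493).

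Loading factors of class II did not move as a unit. *H2-DMb1*, the beta chain of H2-DM, which exchanges the invariant chain peptide for antigen, was at 1.39 to 2.77 CPM (median 2.19) in NT + Sham and at 4.13 to 9.82 CPM (median 6.48) in NT + Stroke (log2 fold change 1.69 ± 0.21, adjusted *P* = 1.05e-05). *H2-DMa*, the alpha chain of the same molecule, was at 16.5 to 22.6 CPM (median 20.3) and 17.3 to 28.1 CPM (median 19.4), and its log2 fold change was 0.06 ± 0.11 (adjusted *P* = 0.758). The other 4 loading factors had log2 fold changes of 0.86 or more. The RefSeq starts of *H2-DMa* lie 9664 and 12350 bases before the start of the gene in the deposited annotation, and the part of this in its counts was not tested. *H2-Ob* and *H2-Oa*, chains of the inhibitor of H2-DM that is known from B cells, rose 4.07-fold and 2.31-fold from medians of 0.27 and 0.40 CPM. *H2-DMb2* gave 0.86 ± 0.31 and missed the threshold (adjusted *P* = 0.0514).

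Peptide supply rose in 5 of its 7 genes. *Psmb8* was at 3.75 to 5.60 CPM (median 4.29) in NT + Sham and 9.52 to 16.7 CPM (median 12.4) in NT + Stroke, and *Psmb9* at 2.03 to 3.78 CPM and 5.65 to 8.76 CPM. These immunoproteasome subunits rose 2.77-fold and 2.86-fold. *Psmb10*, the other inducible subunit, was at 49.2 to 69.2 CPM and 40.6 to 62.3 CPM, a log2 fold change of -0.16 ± 0.10 (adjusted *P* = 0.26). The peptide transporter genes *Tap1* and *Tap2* rose 2.04-fold and 1.70-fold and tapasin (*Tapbp*) 1.71-fold, each without overlap. *Tapbpl*, which encodes the tapasin-related editor of peptides, gave 0.16 ± 0.10 (adjusted *P* = 0.283).

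**Figure D2:**
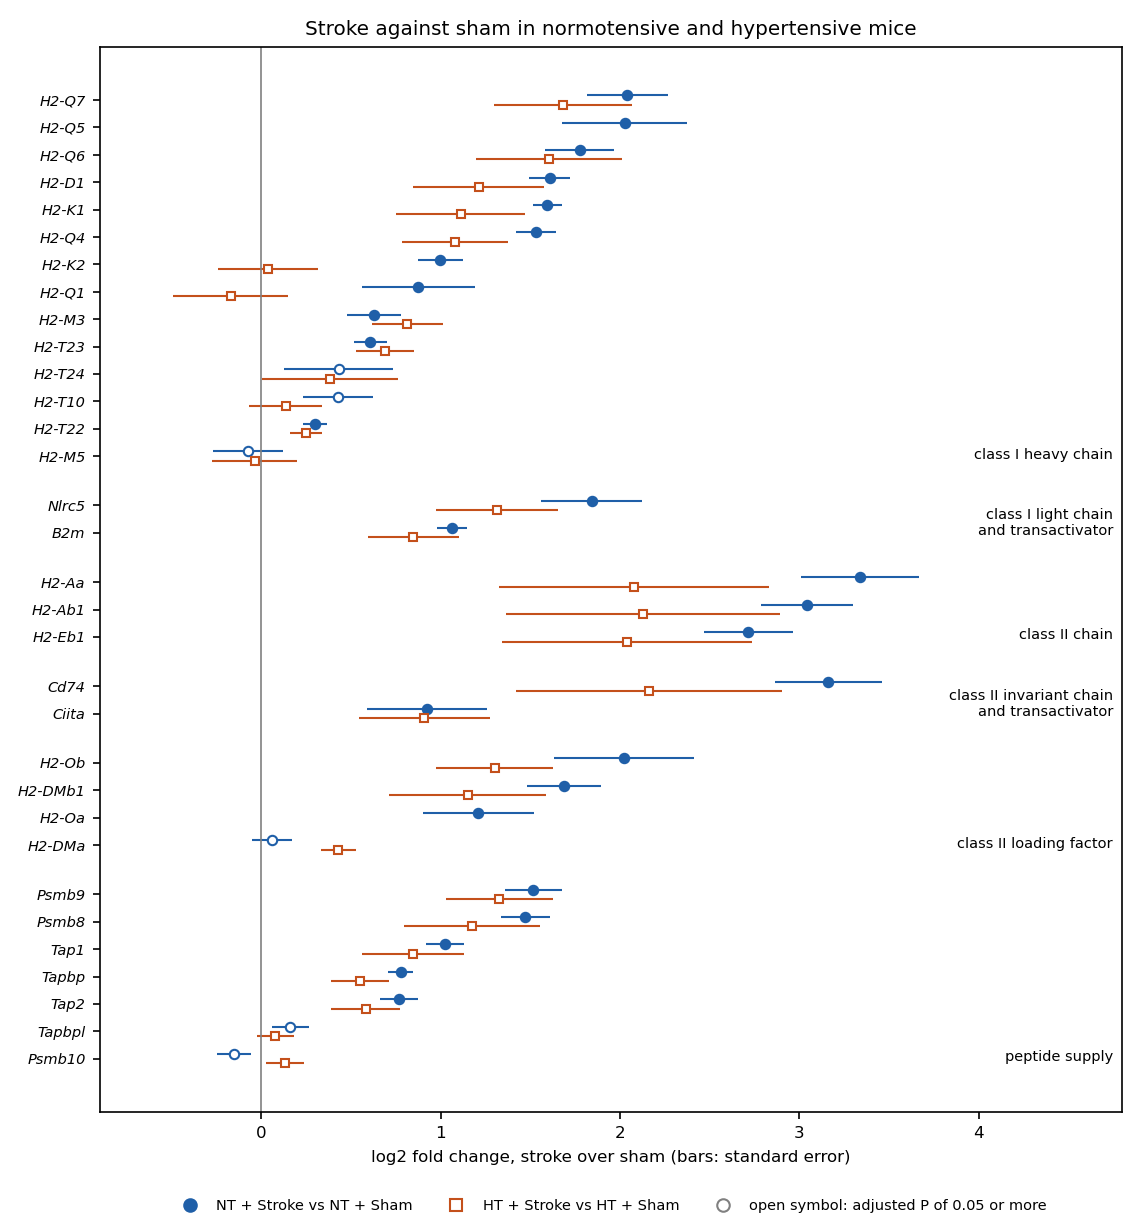
Log2 fold change of stroke over sham for the members described by name and tested, in normotensive (circles) and hypertensive mice (squares), with bars for the standard error (n = 6 mice per group). Symbols are open where the adjusted *P* was 0.05 or more, which was so for every hypertensive value, and *H2-Q5* and *H2-Oa* did not pass the filter on low counts in hypertensive mice.

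Between genes, levels were compared as FPKM, which takes gene length into account. In NT + Sham the most abundant member was *B2m* at 136 ± 7.47 FPKM (mean ± SD, n = 6), followed by *Psmb10* at 34.3 ± 3.86, *H2-D1* at 22.9 ± 1.46, *H2-K1* at 15.6 ± 1.06, *H2-DMa* at 11.9 ± 1.47, *Tapbp* at 9.35 ± 0.23, *H2-T23* at 9.29 ± 0.94 and *Cd74* at 7.56 ± 0.38 FPKM. In NT + Stroke *Cd74* (70.2 ± 27.5 FPKM) and *H2-D1* (72.3 ± 14.9 FPKM) stood side by side behind *B2m* (294 ± 44.3 FPKM) and did not differ beyond their spread. *Psmb10* (31.8 ± 4.42 FPKM) and *H2-Eb1* (29.9 ± 10.4 FPKM) did not differ beyond their spread either.

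Class I and class II were set against each other by summing the 24 heavy chain genes and the 5 class II chain genes in each mouse. In summed FPKM, class I was above class II in 24 of 24 mice. In summed CPM, class I was at 163 to 181 (median 174) in NT + Sham and 336 to 496 (median 440) in NT + Stroke, while class II was at 11.8 to 14.0 (median 13.3) and 48.7 to 152 (median 113). The ratio of these medians, stroke over sham, was 2.53 for class I and 8.50 for class II. The class II share of the 2 sums together was 7.12 ± 0.59% in NT + Sham and 19.7 ± 4.25% in NT + Stroke (mean ± SD, n = 6), and by FPKM 11.9 ± 0.98% and 29.2 ± 5.65%. Variation between mice was also unequal: among NT + Stroke mice the highest sum was 1.48 times the lowest for class I and 3.13 times for class II. Within class I, *H2-D1* and *H2-K1* made up 34.4% and 23.4% of the summed FPKM in NT + Sham and 42.4% and 28.9% in NT + Stroke, and the share of *H2-T23* went from 14.0% to 8.69%.

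**Figure D3:**
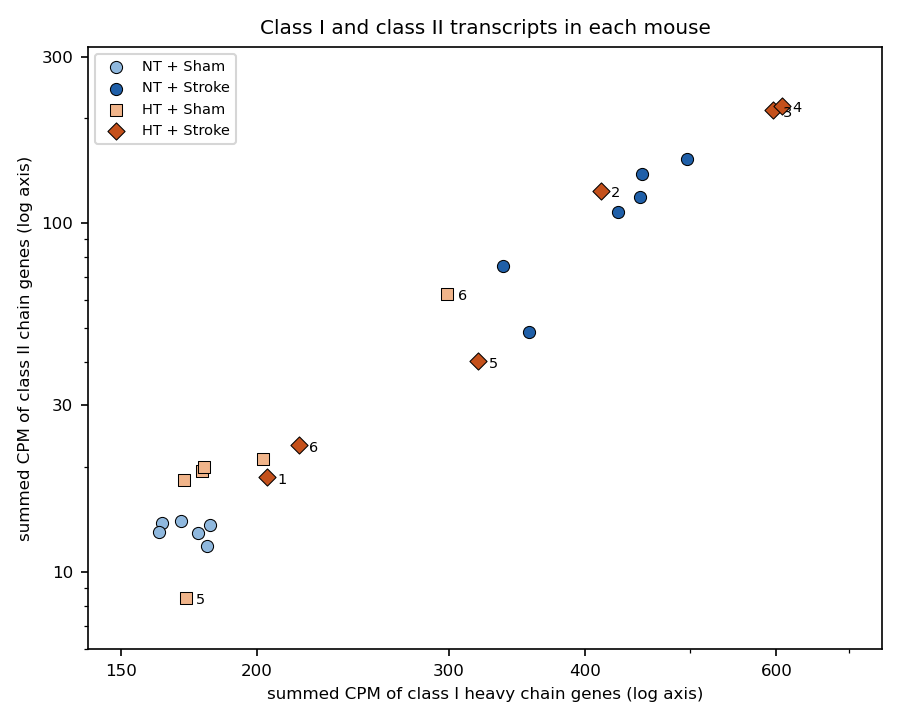
Summed CPM of the 24 class I heavy chain genes (horizontal) and the 5 class II chain genes (vertical) in each mouse, on log axes, with mouse numbers beside the HT + Stroke mice and HT + Sham 5 and 6. NT + Sham mice lie together at 163 to 181 and 11.8 to 14.0, and HT + Stroke 1 and 6 lie near the sham mice. HT + Sham 6 (299 and 62.6) lies above the other sham mice and within the range of the stroke mice, in class II also within that of NT + Stroke.

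Stroke in hypertensive mice was the second comparison. None of the 35 members tested passed an adjusted *P* under 0.05 in HT + Stroke compared to HT + Sham by edgeR, where 108 of 16741 genes (0.645%) did. At an unadjusted *P* under 0.05, 24 members were higher and none lower, against 10.5% of all genes higher. In no member were the groups apart without overlap (0.579% of all genes were higher in this way). The median log2 fold change was 0.85 over the members and 0.00 over all genes tested, and 32 of the 35 values were positive. DESeq2 called 17 members higher (3.71% of all genes) and a fit of all 4 groups together called 22 (4.76%).

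**Figure D4:**
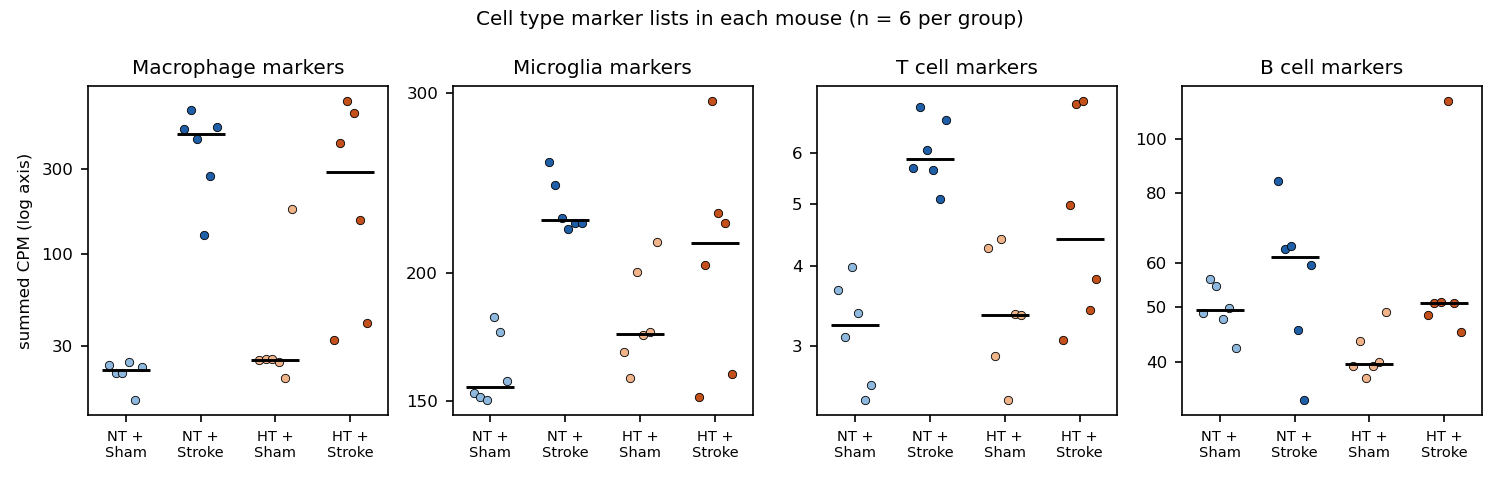
Summed CPM of 4 cell type marker lists in each mouse on log axes, with points for the 6 mice of a group in the order of their numbers and a line at the median. Macrophage markers in HT + Sham 6 (180 CPM) are above those in the other sham mice and in HT + Stroke 1 and 6 (32.5 and 40.8 CPM) below those in the other stroke mice.

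Part of the spread lay in a few mice, and it was seen in class I genes and more widely in class II genes. *Cd74* was at 15.1, 13.7, 15.5, 15.9, 6.36 and 48.4 CPM in HT + Sham mice 1 to 6 and at 15.1, 99.8, 186, 160, 31.6 and 19.8 CPM in HT + Stroke mice 1 to 6. HT + Sham 6 was thus higher than 3 of the stroke mice, and HT + Stroke 1 was within the range of the sham mice. *H2-D1* was at 59.1, 60.7, 60.7, 72.3, 62.4 and 119 CPM in HT + Sham and at 70.8, 181, 269, 268, 131 and 78.4 CPM in HT + Stroke. HT + Sham 6 was above HT + Stroke 1 and 6 here as well, and HT + Sham 4 was above HT + Stroke 1. The log2 fold changes were 2.16 ± 0.74 for *Cd74* (adjusted *P* = 0.178) and 1.21 ± 0.36 for *H2-D1* (adjusted *P* = 0.128), against 3.16 ± 0.30 and 1.61 ± 0.12 in normotensive mice. For *H2-Ab1*, *H2-Aa* and *H2-Eb1* they were 2.13 ± 0.77, 2.08 ± 0.75 and 2.04 ± 0.70, and for *H2-K1* and *B2m* 1.11 ± 0.36 and 0.85 ± 0.25, with adjusted *P* values from 0.122 to 0.2. The highest class II sum was 11.6 times the lowest in HT + Stroke and 7.45 times in HT + Sham. In NT + Stroke it was 3.13 times and in NT + Sham 1.18 times the lowest. Without the 3 libraries it was 5.40 times in HT + Stroke and 2.50 times in HT + Sham. For class I it was 2.97 times in HT + Stroke and 1.74 times in HT + Sham, or 1.90 and 1.18 times without the 3 libraries.

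The 3 libraries that stood apart were picked by markers that moved with the MHC genes. Values without them are therefore no independent evidence. Without HT + Sham 6 and HT + Stroke 1 and 6, 25 of 37 members tested were called higher (6.81% of all genes), and 23 of these 25 were apart without overlap. Of all 37 members 24 were apart in this way, against 7.52% of all genes, with *Ciita* as the one that was not called. *H2-D1* then gave 1.75 ± 0.18 (adjusted *P* = 8.69e-05), *H2-K1* 1.65 ± 0.18, *B2m* 1.24 ± 0.15, *Cd74* 3.17 ± 0.52 (adjusted *P* = 0.00825), *H2-Ab1* 3.23 ± 0.52, *H2-Aa* 3.02 ± 0.55 and *H2-Eb1* 3.02 ± 0.46 on the log2 scale. Leaving out 1 library also changed the count: 12 members were called without HT + Stroke 1 (2.67% of all genes were called higher), 6 without HT + Stroke 6 (1.57%), 2 without HT + Stroke 5 (0.948%) and 2 without HT + Sham 6 (0.73%).

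*H2-DMa* had the smallest adjusted *P* of the members in hypertensive mice (0.053). It was at 15.3 to 18.7 CPM (median 16.9) in HT + Sham and 18.4 to 26.1 CPM (median 22.9) in HT + Stroke, a log2 fold change of 0.43 ± 0.10, and without the 3 libraries 0.42 ± 0.12 (adjusted *P* = 0.0486). *Psmb10* and *Tapbpl* gave 0.13 ± 0.10 and 0.08 ± 0.10, near 0 as in normotensive mice. *H2-K2* and *H2-Q1*, which had risen in normotensive mice, gave 0.04 ± 0.28 and -0.17 ± 0.32. Without the 3 libraries they gave 0.51 ± 0.20 (adjusted *P* = 0.155) and 0.03 ± 0.38, so the sign of *H2-Q1* turned.

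No member passed the adjusted threshold between sham mice with and without hypertension. Of 33 members tested in HT + Sham compared to NT + Sham, none passed by edgeR or DESeq2, nor did any of the 16581 genes tested (0%). At an unadjusted *P* under 0.05, 6 members were higher (*H2-K1*, *H2-K2*, *H2-Q4*, *H2-Aa*, *Tapbp* and *Nlrc5*) against 4.96% of all genes, and 1 was lower (*H2-DMa*) against 3.08%. *H2-Aa* was at 6.46, 6.66, 7.25, 7.78, 2.35 and 19.2 CPM in HT + Sham against 2.80 to 4.21 CPM in NT + Sham. In 5 of the 6 hypertensive mice it was thus above every NT + Sham mouse, and its log2 fold change was 1.22 ± 0.38 (adjusted *P* = 0.438), or 0.77 ± 0.23 without HT + Sham 6 (adjusted *P* = 0.822). *Tapbp* was at 32.0 to 44.1 CPM in HT + Sham and 30.03 to 31.8 CPM in NT + Sham and was the only member without overlap, as were 0.169% of all genes, with a log2 fold change of 0.21 ± 0.08 (adjusted *P* = 0.486), or 0.14 ± 0.06 without HT + Sham 6. The log2 fold change of *H2-K1* was 0.38 ± 0.16, or 0.17 ± 0.08 without HT + Sham 6. That of *Cd74* was 0.85 ± 0.40, or 0.31 ± 0.17 without that library.

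Stroke mice with and without hypertension were compared last. None of the 37 members tested in HT + Stroke compared to NT + Stroke passed by edgeR or DESeq2, and none had an unadjusted *P* under 0.05, where 0% of all genes passed the adjusted threshold and 7.23% the unadjusted one. The values were -0.12 ± 0.34 for *H2-D1*, -0.12 ± 0.32 for *H2-K1*, 0.00 ± 0.63 for *H2-Ab1* and -0.17 ± 0.64 for *Cd74* on the log2 scale, and the standard errors of the class II genes were the larger ones. Without HT + Stroke 1 and 6 they were 0.23 ± 0.21, 0.22 ± 0.18, 0.49 ± 0.48 and 0.31 ± 0.50, and the median over the members went from -0.03 to 0.22. *Ciita* reached 4.90 CPM in HT + Stroke 3 against 1.15 to 1.64 CPM in the other 5 mice of that group.

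The test of whether stroke acted differently with hypertension, the interaction over all 24 mice, called no member of 37 by edgeR or DESeq2 and none of the 17608 genes (0%). At an unadjusted *P* under 0.05 there were 3 members (*H2-K2*, *H2-Q1* and *H2-DMa*), against 10.4% of all genes. *H2-K2* was at 2.48 to 3.36 CPM in NT + Sham, 4.78 to 6.21 CPM in NT + Stroke, 2.65 to 6.76 CPM in HT + Sham and 2.23 to 6.60 CPM in HT + Stroke. Its interaction was -0.97 ± 0.31 (adjusted *P* = 0.322), or -0.49 ± 0.22 without the 3 libraries named above. That of *H2-DMa* was 0.36 ± 0.15 (adjusted *P* = 0.428). For the class II chains *H2-Aa*, *H2-Ab1* and *H2-Eb1* the interaction was -1.26 ± 0.83, -0.92 ± 0.82 and -0.68 ± 0.74, with adjusted *P* values from 0.607 to 0.767. Without the 3 libraries it was -0.31 ± 0.62, 0.19 ± 0.56 and 0.31 ± 0.51, so the sign turned in *H2-Ab1* and *H2-Eb1*.

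Other genes of the pathway were taken from 8 lists. In NT + Stroke compared to NT + Sham 14.4% of all genes tested rose and 11.5% fell. Of 7 genes that process antigen for class II, 6 rose. In hypertensive mice none of the 7 passed the adjusted threshold, and 6 were higher at an unadjusted *P* under 0.05 (10.5% of all genes). Among them *Ifi30*, the thiol reductase of lysosomes, was at 3.32 to 4.48 CPM in NT + Sham and 9.09 to 20.3 CPM in NT + Stroke (log2 fold change 1.80 ± 0.18, adjusted *P* = 2.14e-06), and *Ctsl* (cathepsin L) rose by 0.97 ± 0.10. Of 7 genes for loading and trimming on class I, including the chaperones *Calr*, *Canx* and *Pdia3*, only *Psme2*, a subunit of the proteasome activator, rose (0.40 ± 0.12, adjusted *P* = 0.0181), and *Erap1*, which trims peptides, gave 0.44 ± 0.16 (adjusted *P* = 0.0527). The constitutive proteasome subunits that *Psmb8*, *Psmb9* and *Psmb10* replace gave no rise that passed in any of the 3, and *Psmb7* fell by 0.16 ± 0.05 (adjusted *P* = 0.0243), while *Psmb5* gave -0.12 ± 0.09.

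Of 12 regulators 5 rose in NT + Stroke compared to NT + Sham and none fell, against 14.4% and 11.5% of all genes. *Irf8*, a transcription factor of myeloid cells, rose from 7.24 ± 0.74 to 22.7 ± 5.25 CPM (mean ± SD, n = 6; log2 fold change 1.65 ± 0.14, adjusted *P* = 3.82e-07) and *Irf1* by 0.80 ± 0.11. In the interferon gamma list 2 of 5 tested genes rose and 1 fell: the receptor chain *Ifngr1* rose by 0.83 ± 0.08 (adjusted *P* = 7.29e-07) and *Jak1* fell by 0.17 ± 0.06. *Ifng* itself was at most 0.11 CPM in any mouse and too low to be tested. Of 5 co-stimulation genes 4 rose, with *Cd274* at 1.29 ± 0.18 and *Cd86* at 1.22 ± 0.19, and of the class I-like genes outside H2 4 of 4 tested rose, with *Hfe* at 1.10 ± 0.13 and the neonatal Fc receptor *Fcgrt* at 0.75 ± 0.08. Among receptors of MHC molecules 2 of 3 tested rose. *Pirb*, an inhibitory class I receptor of myeloid cells and neurons, went from 0.54 ± 0.12 to 4.25 ± 1.12 CPM (log2 fold change 2.96 ± 0.23, adjusted *P* = 9.93e-08) and *Lag3*, which binds class II, rose by 1.60 ± 0.13. *Cd8a* and *Cd8b1* were under 1 CPM in each mouse. In HT + Stroke compared to HT + Sham none of the genes of these lists passed the adjusted threshold, and *Irf8*, *Pirb* and *Lag3* gave 1.54 ± 0.33, 2.40 ± 0.67 and 1.33 ± 0.29. Without the 3 libraries these 3 genes gave 1.99 ± 0.17, 3.36 ± 0.50 and 1.73 ± 0.20 and passed, as did 6 of the 7 genes of class II processing. Of all genes 6.81% were then called higher.

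Marker lists of cell types moved unequally. Over all genes tested, 14.4% rose and 11.5% fell in NT + Stroke compared to NT + Sham. In NT + Stroke compared to NT + Sham 4 of 6 macrophage markers and 4 of 6 microglia markers rose, with summed levels of 14.9 to 24.4 against 128 to 650 CPM and of 150 to 181 against 221 to 257 CPM. For T cells 2 of 3 tested markers rose, with a sum of 2.48 to 3.98 CPM in NT + Sham and 5.08 to 7.08 CPM in NT + Stroke. Dendritic cell markers gave 2 higher and 1 lower of 5 tested, with a sum of 15.6 to 20.3 against 19.0 to 33.6 CPM, and none of 2 tested B cell markers passed, with a sum of 42.4 to 56.3 against 34.2 to 84.0 CPM. In NT + Sham *Xcr1* and *Cd3d* had at most 3 counts in each mouse. No marker of natural killer cells was high enough to be tested. Neuronal markers, which define the labelled tissue, fell in 3 of 5 genes, with a sum of 7044 to 7597 CPM in NT + Sham and 5418 to 6348 CPM in NT + Stroke, without overlap. By edgeR at an unadjusted *P* under 0.05, 4 of the 5 were lower and 1 was higher. In the same comparison 4 of 4 cortex markers fell, 2 of 4 olfactory bulb markers rose and 3 of 3 astrocyte markers rose, the last with a sum of 208 to 250.1 against 291 to 316 CPM. By edgeR at an unadjusted *P* under 0.05, 4 of 4 olfactory bulb markers were higher in HT + Sham compared to NT + Sham (4.96% of all genes). For the interaction 4 of 4 were negative, where 10.4% of all genes passed in either direction. In HT + Stroke compared to HT + Sham 4 of 4 striatum markers were higher (10.5% of all genes). None of these passed the adjusted threshold. Of 3 oligodendrocyte markers, 2 passed it as higher in HT + Stroke compared to HT + Sham, against 0.645% of all genes in either direction. In NT + Stroke compared to NT + Sham 1 of the 3 did. For macrophage markers in HT + Stroke compared to HT + Sham, 3 of 6 were higher and 1 lower at an unadjusted *P* under 0.05 by edgeR (10.5% of all genes were higher). None of the 6 passed the adjusted threshold. Without the 3 libraries that stood apart, 4 of the 6 passed as higher (6.81% of all genes). *Cd163* and *Lyve1* then gave -0.02 ± 0.24 and -1.18 ± 0.52 on the log2 scale. The part of cell numbers in the MHC results was not tested.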

How the data were processed

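Poly(A) RNA from 24 libraries was sequenced. The authors aligned reads to an Ensembl mouse reference. They deposited counts per gene without normalization, beside FPKM values that they scaled by gene length and library size. The submitters' processing notes name featureCounts 1.5.0-p3 and DESeq2 1.20.0, and the strand setting is not given in the sources used here. The authors' 48 columns of normalized counts and their fold changes and p-values were not used. The 4 tables were joined by gene identifier, and shared libraries had identical values. Gene positions were read as GRCm38, since 33 of the 46 members have identical coordinates in GENCODE M21 and all 46 are present there.

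Counts were tested in R 4.3.3 with edgeR 4.0.16 (filterByExpr with a minimum count of 10 and total of 15, TMM scaling, robust two-sided quasi-likelihood test, Benjamini-Hochberg adjustment over all genes tested, threshold 0.05), on the 12 libraries of 2 groups or, for the interaction, on 24. CPM used TMM-scaled library sizes. The fits were run on simulated counts for NT + Stroke compared to NT + Sham, with the same spread between libraries set for every gene. That does not cover the wider spread in hypertensive mice. The labels hold 1 sample per group and do not tie libraries to animals. The study's methods describe RNA from brains of mice, so each of the 6 libraries was taken as 1 mouse, and *P* values measure the spread between libraries.

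Members and lists were chosen with earlier results of these data known. Members with a mean of at least 1 CPM, or an adjusted *P* under 0.05 in any comparison, were described by name, and other members where their counts bear on a result. From each pathway list the 2 genes with the smallest *P* in normotensive stroke and a mean of at least 1 CPM were named, with a few others given as values. Alternatives were DESeq2 1.42.0, no scaling, scaling by the upper quartile, no filter beyond 1 count, all groups in one fit, each library left out in turn and, added after the data were seen, the 3 libraries that stood apart left out together and the library number as a replicate block.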

Additional observations from a re-analysis of the deposited data

Results flagged for a closer look

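A mouse lay far from the other 5 of its group, by Dixon's test at the 95% level, in 13 of 128 groups of a member and a condition. Chance flags about 1 in 20 groups, and members of the same mouse are not independent. HT + Sham 6 accounted for 8 of the 13, each time as the highest: *Cd74* (48.4 CPM, others 6.36 to 15.9), *H2-Aa* (19.2 CPM, others 2.35 to 7.78), *H2-Ab1* (22.5 CPM, others 3.16 to 6.52), *H2-Eb1* (20.7 CPM, others 2.89 to 7.40), *H2-DMb1* (5.91 CPM, others 2.16 to 2.96), *H2-K1* (87.7 CPM, others 40.8 to 52.5), *H2-D1* (119 CPM, others 59.1 to 72.3) and *H2-Q6* (3.15 CPM, others 1.11 to 1.87).

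The other 5 were single genes. *Ciita* was at 4.90 CPM and *H2-T24* at 3.37 CPM in HT + Stroke 3, against 1.15 to 1.64 and 0.57 to 1.39 CPM in the others. *H2-DMa* was at 28.1 CPM in NT + Stroke 3 (others 17.3 to 20.8), *H2-T24* at 2.63 CPM in NT + Sham 4 (others 0.65 to 1.35) and *H2-Q1* at 1.46 CPM in NT + Sham 1 (others 0.44 to 0.75).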

How the results depend on the processing

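The count of members called in NT + Stroke compared to NT + Sham was 24 to 29 under every alternative run (24 to 26 with each library left out), and each called member was higher. Of the 26 called members, *Ciita* and *H2-Q1* lost the call under the fit of all groups together (adjusted *P* 0.0797 and 0.0561) and without most single libraries, and *H2-Q1* also without the filter on low counts (0.055). Their adjusted *P* over single libraries left out reached 0.107 and 0.11. In HT + Stroke compared to HT + Sham the count of 0 became 17 by DESeq2, 3 with all genes with at least 1 count, 22 with all groups in one fit, 25 without the 3 libraries that stood apart and 0 to 12 with a library left out, and it stayed 0 under other scalings. The counts for HT + Sham compared to NT + Sham, HT + Stroke compared to NT + Stroke and the interaction were 0 under each alternative run, 0 to 0 with a library left out. No log2 fold change of a member described by name that was called, or that had an unadjusted *P* under 0.05 where none was called, turned its sign. The class II share by FPKM in place of CPM was 11.9% for 7.12% in NT + Sham, 29.2% for 19.7% in NT + Stroke and 16% for 10.2% in HT + Sham. Libraries carry numbers 1 to 6 in the column names, but no label ties equal numbers across groups. Deviations of same-numbered libraries correlated at -0.5 to 0.372 over the 4 pairs of groups, so the numbers were not taken as pairs. With the number as a replicate block 26 members were called in NT + Stroke compared to NT + Sham, without *Ciita* (adjusted *P* = 0.0583), and 0 in each other comparison. Counts under about 1 CPM, as for *H2-Q5*, *H2-Ob* and *Nlrc5*, limit the precision of those genes.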

Other observations

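The 14 members not described by the naming rule had means of 0.00417 to 0.902 CPM over the 24 mice, 10 of them class I heavy chain genes. In 4 of the 14 no mouse had more than 3 counts. *H2-M2* had 57 counts in 11 of the 24 mice and *H2-Q10* 54 counts in 14 mice. *H2-M2* had 0 counts in NT + Sham and 37 in NT + Stroke. DESeq2, run without the edgeR filter, called *H2-M2*, *H2-Q10* and *H2-Q2* higher in NT + Stroke compared to NT + Sham (adjusted *P* = 7.26e-05, 0.000939 and 0.0435). *H2-Ke6*, an enzyme gene within the H2 region that is no MHC molecule, had 289 counts in all and gave -0.37 ± 0.35 in hypertensive stroke (adjusted *P* = 0.636). The pseudogenes *H2-T-ps*, *H2-M6-ps* and *H2-Bl* held 236, 325 and 261 counts.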
